A study of Solanum lycopersicum with 6 samples.

Results

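Axillary buds of tomato (Solanum lycopersicum), the side shoots in the angle between leaf and stem, were profiled by RNA sequencing, and the 8 loci described here encode the core of jasmonate synthesis and signalling. The members were named by identifier and not by their values: 5 enzymes of synthesis (LOXD, AOS1, AOS2, AOC and OPR3), the conjugating enzyme JAR1, the receptor subunit COI1 and the transcription factor MYC2. All 8 were found, each as 1 row, among 25440 loci of the expression table, and all 8 were among the 18802 tested loci, whose mean reached 1 FPKM (fragment counts scaled by transcript length and by the library total). The study set 2 cultivars side by side, called monomaker and compound raceme in the labels, with 3 libraries each from plants kept in a greenhouse. The monomaker libraries are titled WT and the compound raceme libraries BJ. No treatment or age is given, and no genotype beyond the cultivar and these titles. Whether each library stands for a plant of its own is not stated, so p-values measure the spread between libraries, which may be technical.

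Jasmonates are lipid hormones best known in tomato from the response of leaves to wounding and insects. In the plastid, a lipoxygenase (LOXD) oxidises linolenic acid, allene oxide synthase (AOS) and allene oxide cyclase (AOC) turn the product into oxophytodienoic acid, and in the peroxisome OPR3 reduces that acid before its side chain is shortened to jasmonic acid. JAR1 joins jasmonic acid to isoleucine, COI1 binds the conjugate together with a JAZ repressor, the repressor is degraded, and MYC2, which JAZ proteins hold inactive, is released to switch on its target genes. Several genes of synthesis and the JAZ genes are themselves induced by jasmonate.

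FPKM values summed to 674654 to 687303 in the compound raceme libraries and to 717108 to 750250 in the monomaker libraries, and without counts the sequencing depth stayed unknown. Of the bud markers, BRC1A (3.55 ± 1.28 against 4.95 ± 0.997 FPKM, SD, n = 3, monomaker against compound raceme) and BRC1B (23.6 ± 10.8 against 51.0 ± 6.65 FPKM) were present, whereas LS was below 1 FPKM on average in both cultivars. The mean of BL went the other way (2.13 ± 2.93 against 1.03 ± 0.952 FPKM), with 5.50 FPKM in monomaker 1 and 0.15 FPKM in monomaker 3. Summed FPKM of 3 glandular trichome markers was 34.5 to 51.4 in monomaker and at least 64.4 in each compound raceme library. Of these markers only TPS5 separated the cultivars, while TPS20 and MYC1 overlapped. Summed FPKM of 4 green tissue markers was 2099 to 15337 in monomaker and 847 to 2897 in compound raceme. Of 4 floral markers, TM5 was listed at 0 in 2 compound raceme libraries and TPI had 0.06 to 0.36 FPKM there, against 2.45 to 5.18 and 2.89 to 4.59 FPKM in monomaker. TM6 went the other way without overlap (36.1 ± 4.96 FPKM in monomaker, 65.2 ± 15.3 FPKM in compound raceme, limma adjusted p = 0.0842). With both libraries numbered 1 left out TM6 was called higher (limma adjusted p = 0.0482), in a fit that called 3.54% of its loci higher. TAG1 hardly differed (2.38 ± 0.356 and 2.54 ± 0.491 FPKM). The summed floral level (52.0 to 82.4 FPKM in compound raceme, 41.9 to 51.0 FPKM in monomaker) was mostly TM6. In limma the trichome marker TPS5 was called higher in compound raceme (adjusted p = 0.0487), TM5 and TPI were called lower (adjusted p = 0.0194 for both), and no green tissue or bud marker was called. Each of these calls ended when any 1 of the 4 libraries numbered 2 or 3 was left out, with adjusted p of 0.126 to 0.183 for TPS5 and of 0.0752 to 0.0944 for TM5 and TPI. The call of TPS5 was also lost without the filter on low values (0.0744), with rows unsummed (0.0504) and without the variance trend (0.0534). Without monomaker 1, 3 of the 4 green tissue markers were called lower, in a fit that called 1306 of its 18756 loci lower. With all libraries 473 of 18802 loci were called lower. The part of these tissues in the results below was not tested, and in whole buds more cells of a type and more RNA per cell cannot be told apart.

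All 8 genes had a higher mean in compound raceme buds, but none of them passed the test over all loci. The largest differences were those of AOC, AOS1 and JAR1, whose means were 5.96, 7.90 and 5.60 times as high, and the smallest was that of COI1, 1.25 times as high. Counted over the 8, 0 were called higher and 0 lower at an adjusted p below 0.05 in limma, where 0.75% of all tested loci were called higher. At an unadjusted p below 0.05, 7 of the 8 were higher, against 11.7% of all tested loci. The log2 fold change was above 0 for 8 of 8, against 53.9% of tested loci, and its median was 1.02, against 0.04 over all tested loci. For 6 of the 8 (LOXD, AOS1, AOC, OPR3, JAR1 and MYC2) every compound raceme library lay above every monomaker library, an order found at 16.4% of tested loci.

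**Figure D1:**
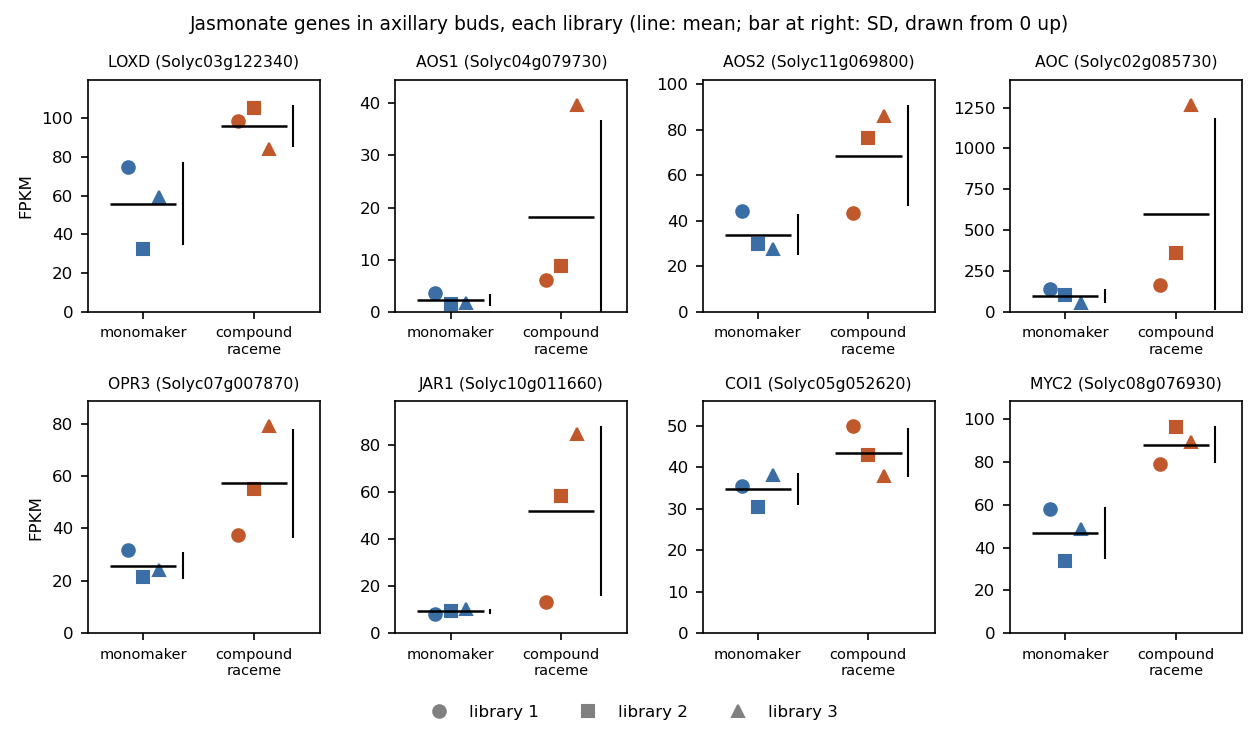
FPKM of the 8 genes (vertical axes, linear and starting at 0, with a scale for each gene) in the 3 monomaker (blue) and 3 compound raceme (orange) libraries; symbols give the library number, the horizontal line the mean and the vertical bar 1 SD to either side, cut off at 0. Among the compound raceme libraries, AOC, AOS1 and JAR1 spread over more than 6-fold, while LOXD, COI1 and MYC2 stayed close together.

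LOXD (Solyc03g122340, chromosome 3), the lipoxygenase of the first step, had 98.5, 105 and 83.7 FPKM in compound raceme libraries 1 to 3, and the monomaker libraries 1 to 3 had 74.95, 32.7 and 59.4 FPKM. Every compound raceme library was above the highest monomaker library, by a small margin between compound raceme 3 and monomaker 1. The log2 fold change, compound raceme minus monomaker on the log2(FPKM + 1) scale as throughout, was 0.85 (SE 0.30, adjusted p = 0.148).

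Tomato has more than 1 gene for allene oxide synthase, the cytochrome P450 that commits the lipoxygenase product to jasmonate. AOS1 (Solyc04g079730, chromosome 4) had 6.09, 8.81 and 39.7 FPKM in the compound raceme buds against 3.67, 1.56 and 1.68 FPKM in those of monomaker. The groups did not overlap, and compound raceme 3 stood far above the other two. Its log2 fold change was 2.16 (SE 0.64, adjusted p = 0.109), and it was 1.39 without compound raceme 3. AOS2 (Solyc11g069800, chromosome 11) had 43.5, 76.2 and 86.2 FPKM in the compound raceme buds against 44.3, 30.0 and 27.6 FPKM in those of monomaker. Here compound raceme 1 lay just below monomaker 1, and the log2 fold change was 0.97 (SE 0.30, adjusted p = 0.115).

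AOS2 was the more abundant of this pair in every library, but its lead was smaller in compound raceme. AOS1 made up 12.3%, 10.4% and 31.5% of the FPKM of both genes in compound raceme and 7.65%, 4.95% and 5.74% in monomaker. The shares of the cultivars did not overlap. The log2 ratio of AOS1 to AOS2 was -2.36 ± 1.08 (SD, n = 3) in compound raceme and -3.96 ± 0.34 in monomaker, a difference of 1.61 with p = 0.1 in a two-sided exact permutation test, which is the smallest p that 3 against 3 libraries can give (adjusted p = 0.4 over 4 ratios). Among the 4 gene ratios tested, those of AOC to LOXD (p = 0.4), JAR1 to OPR3 (p = 0.3) and MYC2 to COI1 (p = 0.2) overlapped between cultivars in the same exact test.

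AOC (Solyc02g085730, chromosome 2), the cyclase that sets the stereochemistry of the hormone's ring, was the most abundant of the 8 genes in both cultivars and one of those with the widest spread. It had 165, 359 and 1267 FPKM in the compound raceme buds against 140, 106 and 54.8 FPKM in those of monomaker. The gap between compound raceme 1 and monomaker 1 was small, whereas compound raceme 3 was 7.68 times as high as compound raceme 1. The log2 fold change was 2.16 (SE 0.73, adjusted p = 0.135), and only 0.378% of tested loci had a larger one. It was 1.37 without compound raceme 3 and 2.84 without compound raceme 1.

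OPR3 (Solyc07g007870, chromosome 7), the reductase of the last step before side chain shortening, had 37.5, 55.0 and 79.0 FPKM in the compound raceme buds against 31.8, 21.6 and 24.0 FPKM in those of monomaker. The cultivars did not overlap, and the order of the compound raceme libraries was that of AOS1, AOS2 and AOC. Its log2 fold change was 1.07 (SE 0.29, adjusted p = 0.091).

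JAR1 (Solyc10g011660, chromosome 10), whose product makes the active isoleucine conjugate, had 13.2, 58.0 and 84.3 FPKM in the compound raceme buds against 8.15, 9.34 and 10.3 FPKM in those of monomaker. The monomaker values lay within 1.26-fold of each other, compound raceme 1 was only slightly above them, and compound raceme 2 and 3 were well apart from both. The log2 fold change was 2.02 (SE 0.62, adjusted p = 0.113). Without compound raceme 1 it was 2.80 and passed the test (adjusted p = 0.0233), and it was 1.77 (adjusted p = 0.325) without compound raceme 2 and 1.503 (adjusted p = 0.254) without compound raceme 3.

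COI1 (Solyc05g052620, chromosome 5), the F-box protein of the receptor, differed least. It had 49.9, 42.9 and 38.0 FPKM in the compound raceme buds against 35.6, 30.6 and 38.1 FPKM in those of monomaker. The cultivars overlapped, since compound raceme 3 lay just under monomaker 3. The log2 fold change was 0.32 with a 95% interval of -0.06 to 0.70 (adjusted p = 0.261), and 23.8% of tested loci had a larger one. The point estimates of AOC, AOS1 and JAR1 were outside that interval, but their own 95% intervals overlapped it (0.42 to 3.91, 0.63 to 3.68 and 0.56 to 3.49). Whether COI1 differed less than these genes was not tested.

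MYC2 (Solyc08g076930, chromosome 8), the bHLH factor at the head of the transcriptional response, had 79.1, 96.1 and 89.1 FPKM in the compound raceme buds against 58.1, 33.8 and 48.7 FPKM in those of monomaker. The cultivars did not overlap, and the compound raceme libraries lay within 1.22-fold of each other. Its log2 fold change was 0.93 (SE 0.22), and its adjusted p of 0.0703 was the lowest of the 8 genes. Without monomaker 1 the log2 fold change was 1.09 and the adjusted p was 0.0291, and with any other single library left out the gene was not called, with an adjusted p of up to 0.255.

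**Figure D2:**
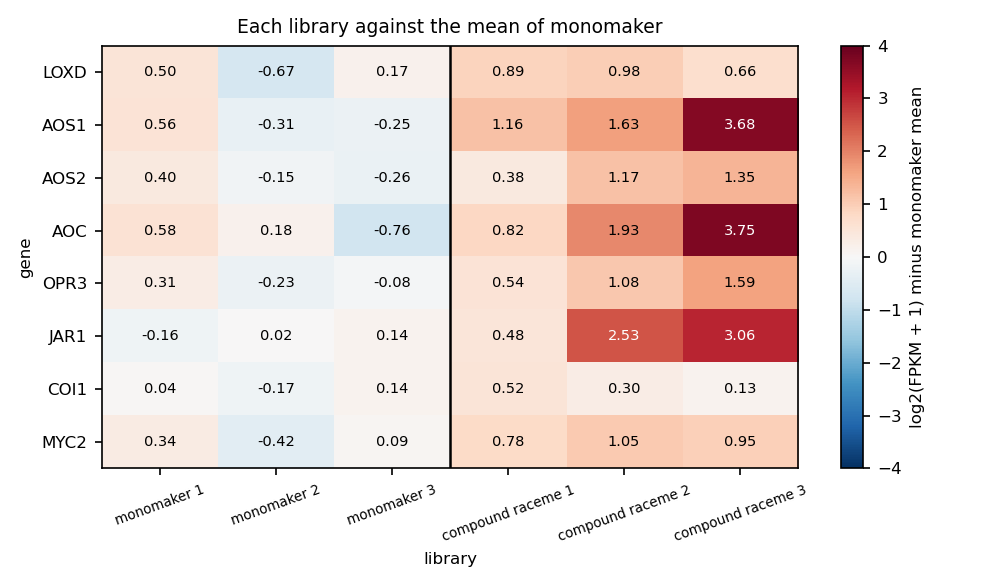
Difference between log2(FPKM + 1) in each library and the monomaker mean of the same gene (colour and printed value), for the 8 genes (rows) in 3 monomaker and 3 compound raceme libraries (columns). Compound raceme 3 reaches 3.75 for AOC and 3.68 for AOS1, while compound raceme 1 stays between 0.38 and 1.16.

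The compound raceme libraries differed among themselves more at some of these genes than at most loci. The SD of log2(FPKM + 1) within compound raceme was 1.48 for AOC, 1.37 for JAR1 and 1.34 for AOS1, against a median of 0.20 over all tested loci, and 0.654%, 0.894% and 0.952% of tested loci had a larger one. AOS2 (0.52) and OPR3 (0.53) were in between, and LOXD (0.17), COI1 (0.19) and MYC2 (0.14) were below the median. Within monomaker the median SD over all tested loci was 0.26, and 6 of the 8 genes were above it. Among them were AOC (0.69), LOXD (0.61) and MYC2 (0.39), whereas JAR1 (0.15) and COI1 (0.16) were below it. Compound raceme 3 was the highest of its group for 5 of the 8 genes (AOS1, AOS2, AOC, OPR3 and JAR1), and compound raceme 1 was the lowest for 6. LOXD and COI1 were lowest in compound raceme 3. In monomaker, library 1 was the highest for 6 of the 8 genes, the exceptions being JAR1 and COI1.

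Library 1 of each cultivar lay nearest to the other cultivar. The median over the 8 genes of the difference from the monomaker mean was 0.66, 1.13 and 1.47 (log2) in compound raceme libraries 1 to 3, and for the monomaker libraries it was 0.37, -0.20 and 0.00, whereas over all tested loci it stayed between -0.10 and 0.10 in every library. Over the 8 genes, the root mean square difference between compound raceme 1 and monomaker 1 was 0.43, the smallest of the 15 pairs of libraries. Compound raceme 1 differed from compound raceme 2 by 0.92 and from compound raceme 3 by 1.73. Over all tested loci compound raceme 1 and monomaker 1 differed by 0.55, with 0.52 and 0.60 for compound raceme 1 against compound raceme 2 and 3. Monomaker 1 differed more from monomaker 2 (0.65) and monomaker 3 (0.74) there, so its nearness to compound raceme 1 was not particular to the 8 genes. With both libraries numbered 1 left out, 4 of the 8 genes were called higher, in a fit that called 3.54% of its loci higher: AOS2 (log2 fold change 1.46, adjusted p = 0.0162), OPR3 (1.49, adjusted p = 0.0284), JAR1 (2.72, adjusted p = 0.0116) and MYC2 (1.17, adjusted p = 0.0448). AOC (3.13, adjusted p = 0.0569) and AOS1 (2.93, adjusted p = 0.0636) had larger differences there without passing.

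**Figure D3:**
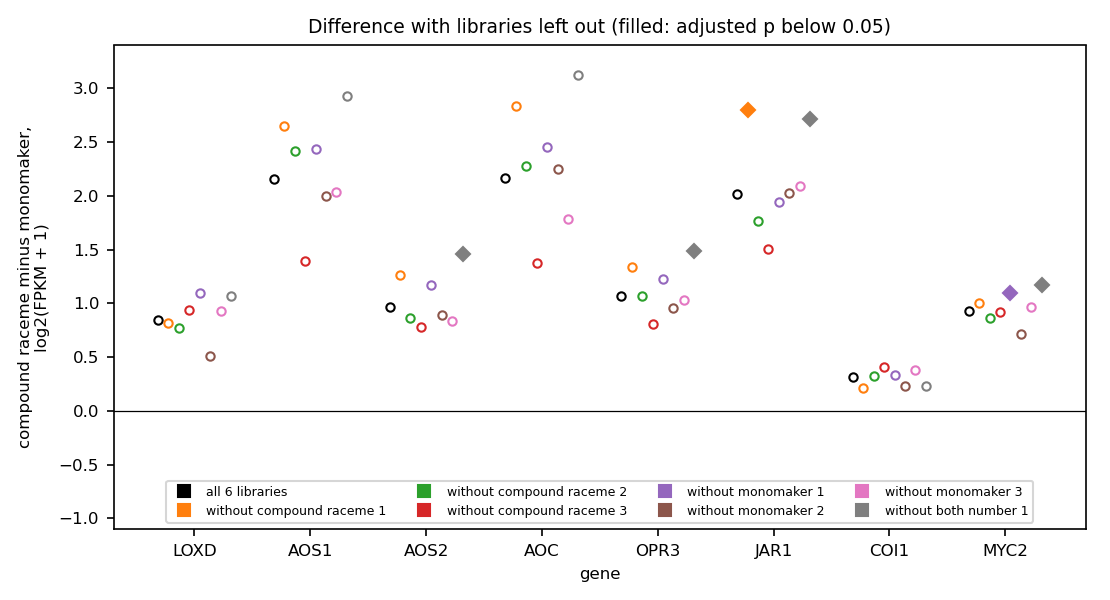
Log2 fold change (vertical axis, compound raceme minus monomaker) of the 8 genes with all 6 libraries, with each library left out in turn and with both libraries numbered 1 left out (colours); filled diamonds passed an adjusted p of 0.05 in limma. All points lie above 0, from 0.22 for COI1 to 3.13 for AOC.

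The order of the levels, which FPKM allows because it is scaled to length, was similar at its ends in both cultivars. In monomaker it ran from AOC (100.2 ± 42.9 FPKM) through LOXD (55.7 ± 21.4), MYC2 (46.9 ± 12.2), COI1 (34.8 ± 3.86), AOS2 (33.9 ± 9.03) and OPR3 (25.8 ± 5.32) to JAR1 (9.25 ± 1.06) and AOS1 (2.30 ± 1.19). Of these neighbours, the ranges of OPR3 and JAR1 and those of JAR1 and AOS1 did not overlap, and the others overlapped. In compound raceme AOC (597 ± 588 FPKM) was followed by LOXD (95.8 ± 11.0), MYC2 (88.1 ± 8.54), AOS2 (68.6 ± 22.3), OPR3 (57.2 ± 20.8), JAR1 (51.8 ± 35.96), COI1 (43.6 ± 6.02) and AOS1 (18.2 ± 18.7). There the range of AOC lay above that of LOXD, and all other neighbours overlapped. JAR1 was below COI1 in every monomaker library and above it in 2 of the 3 compound raceme libraries.

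The deposited comparison called more of these genes than limma did. Of the 8 genes, 6 had in the authors' deposited table a q-value below 0.05 with a positive log2 ratio of compound raceme over monomaker, against 3.54% of its 31063 rows with a q-value. These were JAR1 (log2 ratio 2.17, q = 0.000891), AOS1 (2.504, q = 0.000938), AOC (2.22, q = 0.00251), MYC2 (0.86, q = 0.00582), OPR3 (1.08, q = 0.00923) and AOS2 (0.96, q = 0.0273) in the authors' deposited table. LOXD (0.72, q = 0.112) and COI1 (0.27, q = 0.464) did not reach 0.05 in the authors' deposited table. The test behind those values is not given in these sources.

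By the profile over the 6 libraries, most of the genes formed pairs. Likeness was taken as the root mean square difference between log2(FPKM + 1) profiles centred on their mean, among 36 other tested genes of the pathway. Profiles were not scaled, so the measure takes in the size of the differences between libraries as well as their shape. AOS2 and OPR3 were each other's nearest (0.15), as were LOXD and MYC2 (0.18) and AOS1 and AOC (0.35). COI1 was nearest to MED25 (0.17), a Mediator subunit that MYC2 recruits, and JAR1 to JAZ11 (0.48). Genes that vary little have small differences by construction, so these values rank neighbours of 1 gene and do not compare genes.

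Outside these 8 genes, the other enzymes of the oxylipin branch had mixed values. Of 9 such enzymes 7 were tested, 0 were called, 6 had a log2 fold change above 0, and the median was 0.12. LOXA, a lipoxygenase of the other positional class, had the largest difference (2.26, adjusted p = 0.209), with 7.41, 132 and 94.5 FPKM in the compound raceme buds against 14.1, 7.04 and 6.88 FPKM in those of monomaker, so compound raceme 1 fell within the monomaker range. ACX1A, the acyl-CoA oxidase that shortens the side chain after OPR3, had 40.1, 56.8 and 113 FPKM against 37.5, 38.0 and 31.7 FPKM (0.82, adjusted p = 0.204), with no overlap. OPR1, a relative of OPR3, had 65.8 ± 9.36 and 62.6 ± 11.6 FPKM, and HPL, which takes the lipoxygenase product into volatiles instead, had 43.1 ± 4.01 and 64.8 ± 24.6 FPKM.

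**Figure D4:**
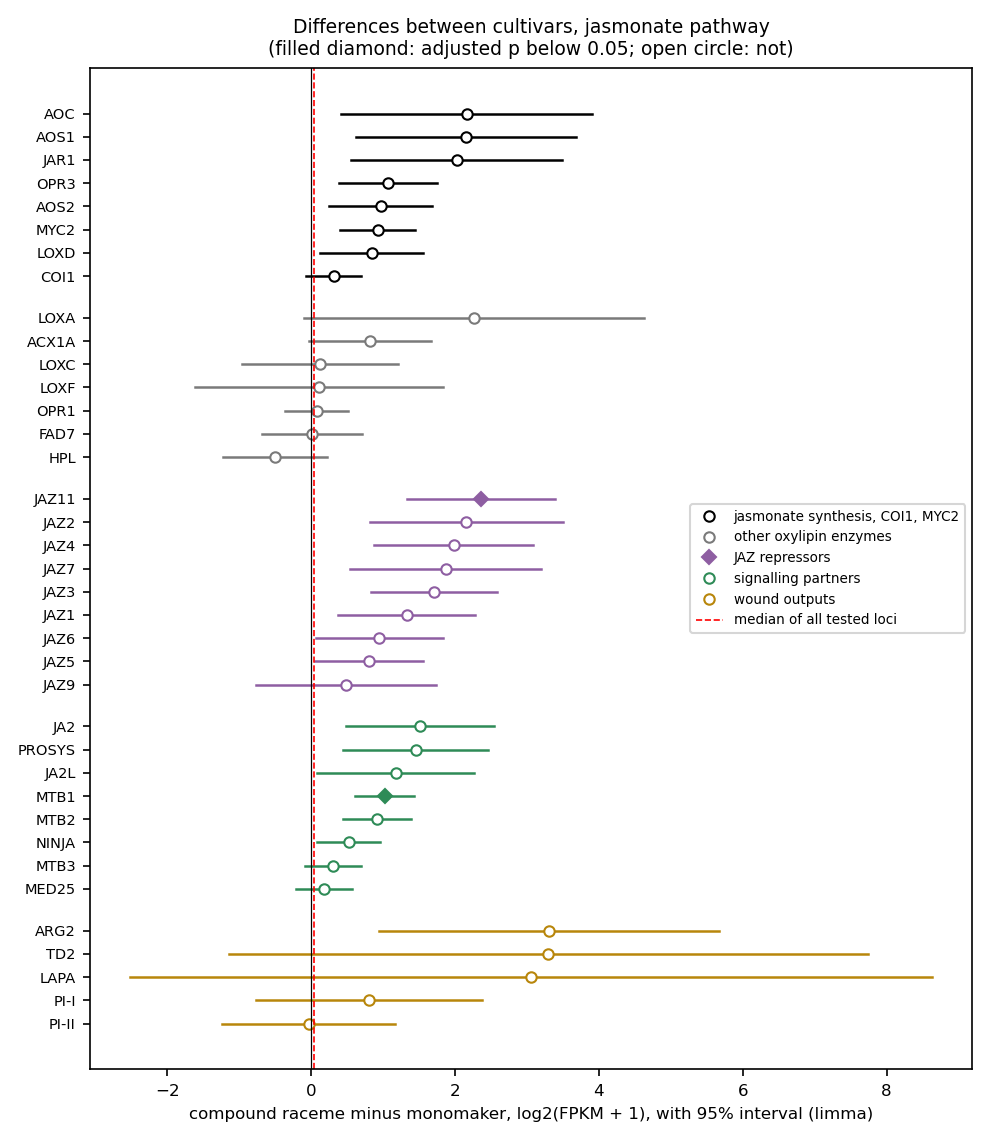
Difference between cultivars (horizontal axis, log2(FPKM + 1), point and 95% interval from limma) for the tested genes of jasmonate synthesis, COI1 and MYC2 and 4 further lists (colours), sorted within a list; filled diamonds passed an adjusted p of 0.05, open circles did not. JAZ11 (2.37) and MTB1 (1.02) are the filled points, and the dashed line is the median of all tested loci (0.04).

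Of the JAZ genes, whose products COI1 binds, JAZ11 was higher in compound raceme. Of 11 JAZ genes 9 were tested, 9 had a log2 fold change above 0 with a median of 1.71, and 1 was called higher and 0 lower. JAZ11 rose, with 18.7 ± 9.26 FPKM in compound raceme buds against 2.56 ± 1.04 FPKM (log2 fold change 2.37, adjusted p = 0.0419), and it kept its call without compound raceme 1 (adjusted p = 0.0238) or monomaker 1 (adjusted p = 0.0278). It lost the call without any other single library, with an adjusted p of up to 0.165, and without the filter on low values (adjusted p = 0.0703). JAZ2 had 275 ± 126 and 66.9 ± 44.1 FPKM (2.16, adjusted p = 0.0877). The count was 7 of 9 without monomaker 1, where 3.92% of loci were called higher, and 2 without compound raceme 1, where 0.962% were. It was 0 without any other single library and 0 without the filter on low values.

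Of 8 further genes of jasmonate and wound signalling, MTB1 was higher in compound raceme. All 8 were tested, 8 had a log2 fold change above 0 (median 0.97), and 1 was called higher and 0 lower. MTB1, a bHLH repressor that MYC2 induces and that ends its response, rose, with 30.1 ± 4.36 FPKM in compound raceme buds against 14.3 ± 2.0 FPKM (log2 fold change 1.02, adjusted p = 0.033). That call was lost without compound raceme 2 (adjusted p = 0.160), compound raceme 3 (0.142), monomaker 2 (0.113) or monomaker 3 (0.0811). Its relative MTB2 had 14.3 ± 3.26 against 7.03 ± 0.795 FPKM (0.92, adjusted p = 0.0608) and MTB3 26.9 ± 3.74 against 21.6 ± 2.65 FPKM (0.31, adjusted p = 0.282). The NAC factor JA2 (1.52, adjusted p = 0.102) and prosystemin (1.46, adjusted p = 0.105), the precursor of the wound peptide systemin, had the largest differences of this list. NINJA, the adaptor that links JAZ proteins to corepressors, had 51.5 ± 8.81 against 35.5 ± 5.26 FPKM (0.52, adjusted p = 0.144).

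Genes known as outputs of the wound response varied widely between libraries. Of 6 such genes 5 were tested, 0 were called, 4 had a log2 fold change above 0, and the median was 3.06. That median is the value of LAPA, an aminopeptidase listed at 0 in 5 libraries and at 579 FPKM in compound raceme 3, and over the other 4 genes the median was 2.05. LAPA was named after its values were seen. Arginase ARG2 had 265, 1135 and 916 FPKM in the compound raceme buds against 305, 32.2 and 27.2 FPKM in those of monomaker (3.31, adjusted p = 0.11). Threonine deaminase TD2 had 3.91, 451 and 778 FPKM in the compound raceme buds against 33.9, 5.20 and 7.44 FPKM in those of monomaker (3.30, adjusted p = 0.305). In both genes compound raceme 1 was below monomaker 1, while compound raceme 2 and 3 were far above monomaker 2 and 3. Proteinase inhibitor I had 889, 1827 and 1074 FPKM in the compound raceme buds against 1628, 261 and 761 FPKM in those of monomaker, and the cultivars overlapped through monomaker 1. Proteinase inhibitor II was low and not higher in compound raceme, with 4.22 ± 0.926 FPKM against 5.15 ± 3.39 FPKM in monomaker (-0.03, adjusted p = 0.971). PPO, with at most 0.3 FPKM in a library, was not tested.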

How the data were processed

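RNA from axillary buds was extracted with Trizol and sequenced from BGI500 libraries, per the labels' protocols. Tools named, without their roles, per the submitters' processing notes, were RSEM 1.2.12, HISAT2 2.0.4, DESeq2 1.4.5 and Bowtie2 2.2.5. The authors deposited FPKM values with 2 decimals for 31139 rows, and a log2 ratio, q-value and p-value for 31063 of them, per the file headers. Neither strand use nor scaling between libraries is given in the sources used here. The rows of the 8 genes carry no coordinates. Chromosomes are those in the identifiers.

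Rows of 1 locus were summed (5699 loci have 2), and 25440 loci resulted. The 18802 whose mean reached 1 FPKM were tested on log2(FPKM + 1) with limma 3.58.1 in R 4.3.3, two-sided, with an intensity trend and the cultivar as only term. P-values were adjusted over all tested loci by the method of Benjamini and Hochberg, and a locus was called below 0.05. This test was checked on simulated data. Such folds understate changes of low genes. Ratios were tested by exact permutation in Python 3.11.15 with SciPy 1.17.1.

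Library numbers come from the titles. Names were paired with identifiers from published assignments as recalled. RefSeq (assembly SLM_r2.1) lists the symbols of all 8 genes on the same chromosome, at most 0.0454 of its gene order away, and those of 27 of 49 other listed genes, at most 0.0819 away. The other 22 names rest on recall, among them JAZ11 and MTB1, which were called, every other JAZ gene except JAZ2, and MTB2, prosystemin and LAPA. The named genes were the 8, every called gene of a pathway list and the 2 of each list with the largest differences. Others were named to fill out a family and were chosen after their values were seen. The genes and lists were chosen with earlier results of these data known. Alternatives were another pseudocount, no filter, quantile normalization, rows unsummed, no trend, a replicate block, and libraries left out.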

Additional observations from a re-analysis of the deposited data

How the results depend on the processing

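All 8 genes kept a log2 fold change above 0 in all 13 alternatives, which was partly fixed in advance. Their folds cannot change without the filter, with rows unsummed, without the trend or with the replicate block. For the 6 of the 8 genes whose cultivars did not overlap, leaving out a library could not reverse the sign. Of 104 comparisons of 1 gene under 1 alternative, 98 stayed on the same side of the threshold. The other 6 passed it, in fits without a library numbered 1. The number of the 8 genes called higher was 0 in the fits with another pseudocount, filter, normalization, row handling or trend, 0 to 1 with 1 library left out and 4 with both libraries numbered 1 left out, and the number called lower was 0 in all of them. Over all loci, 614 were called, against 6 to 2041 with 1 library left out and 1921 without both numbered 1. The lowest was without compound raceme 2 and the highest without monomaker 1. The cause was not tested. Leaving out libraries also changes how many enter a group. With the replicate number as a replicate block 0 loci were called. Deviations of libraries with the same number correlated at 0.028, 0.058 and 0.103 across loci. Each was taken from the mean of only 3 libraries, so these values cannot tell whether a number marks a shared batch. Compound raceme 1 and 2 and monomaker 1 correlated best with another number of the other cultivar, and compound raceme 3 and monomaker 2 and 3 with their own number. Without counts, depth sets no stated limit, and 3 libraries a cultivar limit the precision.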

Other observations

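LAPA (Solyc12g010020), a leucine aminopeptidase known as a late marker of the wound response in tomato, was named after its values were seen. Its value was 579 FPKM in compound raceme 3, with the other 5 libraries listed at 0 (limma adjusted p = 0.438). Compound raceme 3 was also the library with the highest AOC and AOS1, but not the highest ARG2, which peaked in compound raceme 2. Near-identical copies of this gene exist, and how the counting treated them is not stated.

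The genes next to the 8 loci on their chromosomes had mixed values. Of the 80 tested loci that are the 5 nearest on each side by identifier, 0 were called at an adjusted p below 0.05 in limma. Over all loci 614 of 18802 were called. The median log2 fold change around a gene lay between -0.36 and 0.34. At AOS1, AOC, OPR3 and JAR1 none of the 10 neighbours had a larger fold change than the gene itself, and at the other 4 genes 5 of 40 neighbours did, up to 3.52 beside MYC2. Over all tested loci 0.378% to 2.78% had a larger fold change than the first 4 genes. For the other 4 genes it was 3.52% to 23.8%, so few larger neighbours were to be expected at any place.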
